A study of Arabidopsis thaliana with 12 samples.

Results

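The 48 Arabidopsis thaliana genes described here had lower transcript signals at low calcium in shoots of the mutant lcs7, while their calcium difference in the wild type Col-0 ran from -0.29 to 0.40 on the log2 scale. The genes are named by a chromosomal locus alone in the array annotation, with no gene symbol. They were chosen on their measured values: on the scale of log2(signal + 50), the mean of lcs7 at 0.3 mM calcium had to lie at least 1 below its mean at 2 mM, and the same difference in Col-0 had to lie above -0.3. AT3G61260 was left out by name, though its Col-0 difference of -0.83 would have kept it out as well. The 48 genes make up 0.407% of the 11799 genes known by locus only, out of 13356 genes measured by probe sets of a single gene. Because these calcium differences chose the genes, they are given below as a description, without a test.

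Shoots of 14-day-old seedlings were compared in 4 groups of 3 biological replicate arrays each: lcs7 on 0.3 mM calcium, lcs7 on 2 mM calcium, Col-0 on 0.3 mM calcium and Col-0 on 2 mM calcium. lcs7 is a mutant of AVP1 and carries the Col-0 ecotype label. It is the 1 mutant line measured, and its lesion is not described in the labels. AVP1 itself is not analysed here. Every seedling grew on agar-solidified Yamagami medium with sucrose, so calcium and genotype are the only labelled differences between groups. RNA came from whole shoots, in which fewer cells of a type and less RNA per cell cannot be told apart.

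AVP1 is the proton-pumping pyrophosphatase of the plant vacuole. The pump acidifies the vacuole, and the proton gradient it helps to build drives exchangers that load calcium and other ions into this compartment. Calcium also links pectin in the cell wall and carries signals in the cytosol, and plants short of it show damage first in young, expanding leaves. For 47 of the 48 genes the annotation used here gives no function. The exception is AT1G74470, listed as geranylgeranyl reductase, the enzyme that makes the phytyl chain of chlorophyll and of tocopherols.

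The arrays had median signals from 119 to 136 over the 13356 genes. Between 20.2 and 23.1% of the genes of an array had a signal under 20. Replicate 1 of Col-0 at 0.3 mM calcium stood apart from the other arrays of its group: 122 genes lay at least 1 log2 unit from the mean of its fellow replicates, against 79 for replicate 2, 41 for replicate 3 and at most 43 for any array of the other groups. Of the 48 genes, AT4G21870 and AT1G20030 were among those 122. The threshold on Col-0 rests on these arrays, and 19 of the 48 genes did not meet the rule without replicates 2 and 3. Of the genes described below these include AT5G62360, AT1G51090, AT4G34220, AT2G42220, AT5G24490, AT5G53490, AT1G09750, AT1G66100, AT1G10770, AT1G20030, AT3G06160 and AT4G12980. Of the 12 shoot markers listed for a tissue check 5 were measured, led by the Rubisco activase RCA at a mean signal of 17378 in lcs7 at 0.3 mM calcium, 24067 in lcs7 at 2 mM, 23095 in Col-0 at 0.3 mM and 23128 in Col-0 at 2 mM. Of 10 root markers 2 were measured. EXPA7, an expansin of root hairs, had mean signals from 17.4 to 37.3, and PYK10, a beta-glucosidase abundant in roots, had 5879 in lcs7 at 0.3 mM, 2680 in lcs7 at 2 mM, 1535 in Col-0 at 0.3 mM and 986 in Col-0 at 2 mM. PYK10 was thus higher at 0.3 than at 2 mM in lcs7, where the 48 genes were lower, and its part in their differences was not tested.

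In lcs7 the 48 genes differed between 0.3 and 2 mM calcium by a median of -1.15 on the log2 scale, with a range of -2.02 to -1.01. Across all 13356 genes the median was -0.02. The differences crowd at the threshold: 17 of the 48 genes lay above -1.1 and 4 lay below -1.5. In all 48 genes the 3 lcs7 arrays at 0.3 mM were below the 3 at 2 mM, which was so for 22.2% of all genes. The groups separate this cleanly because the rule asked for the difference.

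**Figure D1:**
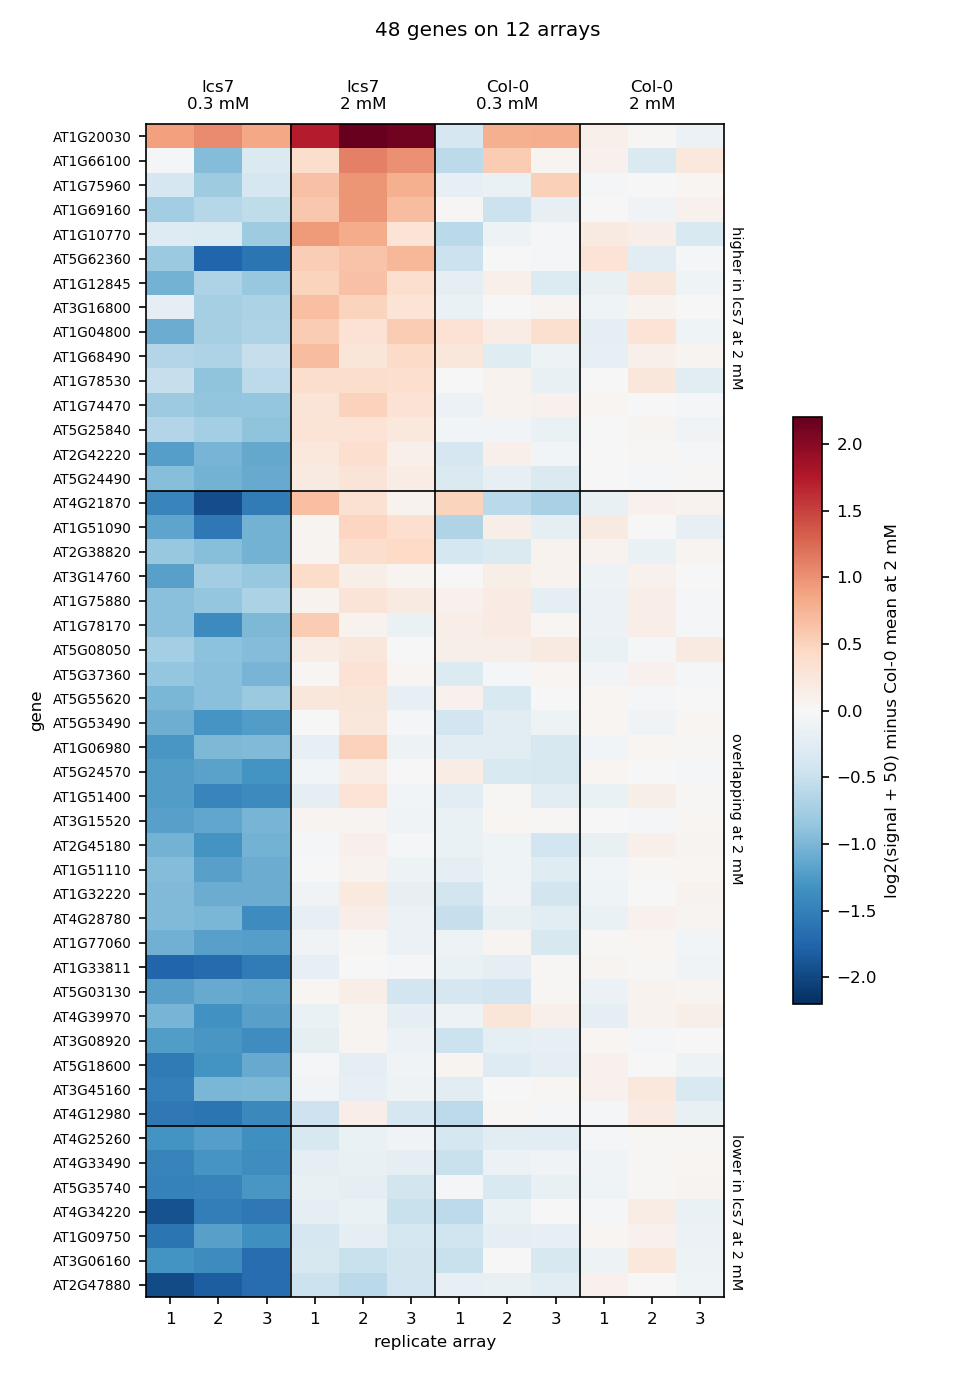
Signal of each of the 48 genes (rows) on each of the 12 arrays (columns), as log2(signal + 50) minus the mean of the 3 Col-0 arrays at 2 mM calcium; blue is lower and red higher. The lcs7 arrays at 0.3 mM are the lowest in nearly every row, and the horizontal lines separate 15 genes higher in lcs7 at 2 mM, 26 with overlapping arrays at 2 mM and 7 lower in lcs7 at 2 mM.

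The largest difference belonged to AT5G62360. Its signals were 943, 467 and 523 in lcs7 at 0.3 mM calcium, against 2473, 2642 and 2826 in lcs7 at 2 mM. In Col-0 they were 1199, 1693 and 1649 at 0.3 mM, against 2102, 1405 and 1631 at 2 mM. The Col-0 arrays overlapped between the calcium levels, while the lcs7 arrays at 2 mM stood above all others and those at 0.3 mM below all others. The lcs7 mean at 0.3 mM was 0.247 times that at 2 mM on the offset scale.

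AT4G21870 was nearly as far apart in lcs7, with 1021, 706 and 960 at 0.3 mM against 4564, 3623 and 3034 at 2 mM. In Col-0 it had 4041, 1874 and 1728 at 0.3 mM, against 2554, 3058 and 3018 at 2 mM. Replicate 1 of Col-0 at 0.3 mM was above the Col-0 arrays at 2 mM, and replicates 2 and 3 were below them. The Col-0 difference of -0.28 is thus a mean over arrays that moved in opposite directions.

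AT1G33811 showed the pattern with little spread. It had 611, 631 and 710 in lcs7 at 0.3 mM, against 1894, 2142 and 2134 in lcs7 at 2 mM. The Col-0 signals were 1943, 1877 and 2202 at 0.3 mM, against 2248, 2206 and 2037 at 2 mM. The 9 arrays other than lcs7 at 0.3 mM lay close together, and the 3 lcs7 arrays at 0.3 mM were below all of them. The lcs7 mean at 0.3 mM was 0.332 times that at 2 mM on the offset scale.

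Among the other large differences, AT1G51090 and AT1G69160 were dim beside most of the 48 genes. Their mean signals were 174 and 154, against a median of 872 over the 48 and 137 over all genes. AT1G51090 had 63.8, 35.8 and 74.3 in lcs7 at 0.3 mM, against 214, 305 and 277 in lcs7 at 2 mM. AT1G69160 had 63.7, 75.1 and 82.1 in lcs7 at 0.3 mM, against 243, 329 and 260 in lcs7 at 2 mM. Its Col-0 arrays lay between these groups, at 148, 90.1 and 120 at 0.3 mM against 142, 135 and 157 at 2 mM. AT4G34220 had 173, 244 and 234 in lcs7 at 0.3 mM, against 684, 707 and 552 at 2 mM. AT1G12845 averaged 498 ± 68 in lcs7 at 0.3 mM and 1345 ± 138 in lcs7 at 2 mM (SD, n = 3 each). Its Col-0 means of 850 ± 143 at 0.3 mM and 940 ± 154 at 2 mM fell between the lcs7 means.

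Many of the 48 genes are abundant transcripts. Their median mean signal was 872, against 137 over all genes, and 22 of them were in the brightest 10% of all genes. The offset of 50 favours bright genes, since a gene needs a signal over 50 in lcs7 at 2 mM to be able to pass. Bright genes as a whole also leaned the same way: in the brightest 10% of all genes the median lcs7 difference was -0.14, and the median Col-0 difference was 0.00. The 99th percentile of the signals was from 6077 to 6258 on the lcs7 arrays at 0.3 mM, against 6753 to 7182 on those at 2 mM, and from 6569 to 6929 on the Col-0 arrays. The part of this in the differences of the 48 genes was not tested.

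The brightest was AT2G45180, with signals of 10435, 8582 and 10416 in lcs7 at 0.3 mM calcium, against 20719, 23118 and 20962 in lcs7 at 2 mM. In Col-0 it had 19348, 20012 and 16009 at 0.3 mM, against 19065, 23234 and 22315 at 2 mM. The Col-0 arrays overlapped, and each of them was above every lcs7 array at 0.3 mM. AT5G24490 averaged 6085 ± 365 in lcs7 at 0.3 mM and 14500 ± 629 in lcs7 at 2 mM. Its Col-0 arrays also separated, with 10352 ± 588 at 0.3 mM and 12484 ± 350 at 2 mM, a Col-0 difference of -0.27. AT1G51400 averaged 4297 ± 366 in lcs7 at 0.3 mM and 11345 ± 2076 in lcs7 at 2 mM, while its Col-0 means were 10029 ± 1107 at 0.3 mM and 11148 ± 1055 at 2 mM.

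AT1G74470, the geranylgeranyl reductase gene, had signals of 4253, 4052 and 4063 in lcs7 at 0.3 mM calcium, against 9064, 10531 and 9191 in lcs7 at 2 mM. In Col-0 it had 6801, 7792 and 7953 at 0.3 mM, against 7589, 7437 and 7201 at 2 mM. The Col-0 difference was 0.02, among the smallest of the 48 genes, and the Col-0 arrays of both calcium levels lay between the lcs7 groups. Under quantile normalization AT1G74470 and AT2G45180 no longer met the rule, and neither did AT1G06980, AT1G09750, AT3G06160 and AT5G08050.

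The remaining bright genes had the same order of groups in lcs7. AT2G42220 averaged 1709 ± 117 in lcs7 at 0.3 mM and 4478 ± 420 in lcs7 at 2 mM. AT5G53490 averaged 1760 ± 142 in lcs7 at 0.3 mM and 4365 ± 478 in lcs7 at 2 mM. AT1G09750 averaged 2724 ± 404 in lcs7 at 0.3 mM and 5689 ± 374 in lcs7 at 2 mM. In Col-0 the arrays of AT5G53490 and AT1G09750 were also separated, lower at 0.3 mM, with differences of -0.25 and -0.27. At the dim end, 3 of the 48 genes had a mean signal under 100 (AT1G06980, AT1G10770 and AT1G78530), and for 3 genes at least 1 lcs7 array at 0.3 mM was under 20.

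**Figure D2:**
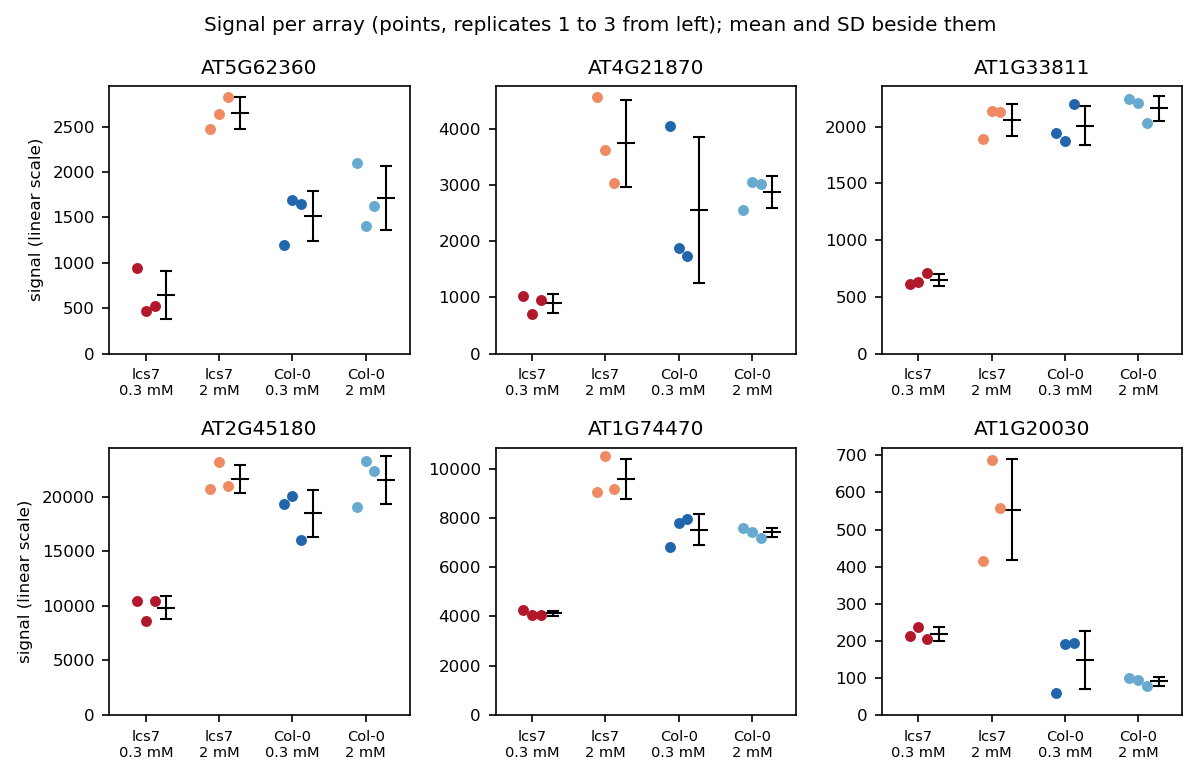
Signal on a linear scale for 6 of the genes, by group, with 1 point per array and the mean and SD (n = 3) beside the points. AT5G62360, AT4G21870 and AT1G33811 had the largest lcs7 differences, AT2G45180 the highest signal, AT1G74470 is the annotated geranylgeranyl reductase gene, and AT1G20030 is the gene whose lcs7 arrays at 0.3 mM lay above those of Col-0.

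Col-0 was not flat over these genes. Its calcium difference was below 0 in 38 of the 48, with a median of -0.16 and a range of -0.29 to 0.40, while the median over all genes was -0.01. In 18 of the 48 it was below -0.2. The 3 Col-0 arrays at 0.3 mM lay below the 3 at 2 mM in 10 of the 48 genes, or 20.8%, and in 12.2% of all genes. The rule used these values, so nothing is read from the comparison with all genes. A difference above -0.3 does not show that a gene did not change in Col-0, and the genes are therefore described by their thresholds and not as responding in lcs7 alone.

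The choice of genes depends on where the thresholds lie. Just inside the lcs7 threshold were AT5G08050 (-1.01), AT1G75880 (-1.01) and AT5G55620 (-1.03), and just outside it were AT3G47295 (-0.997), AT1G70820 (-0.99) and AT5G18430 (-0.99). Just inside the Col-0 threshold were AT4G28780 (-0.29), AT1G32220 (-0.29) and AT3G06160 (-0.28). Just outside it were AT1G29670 (-0.30), AT5G02160 (-0.33) and AT5G58090 (-0.33), whose lcs7 differences of -1.57, -1.45 and -1.27 exceeded those of most of the 48 genes in size. Of 180 genes known by locus only that passed the lcs7 threshold, the 48 are the 26.7% that also passed the Col-0 threshold. The other 132, which include AT3G61260, had a median Col-0 difference of -0.67.

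**Figure D3:**
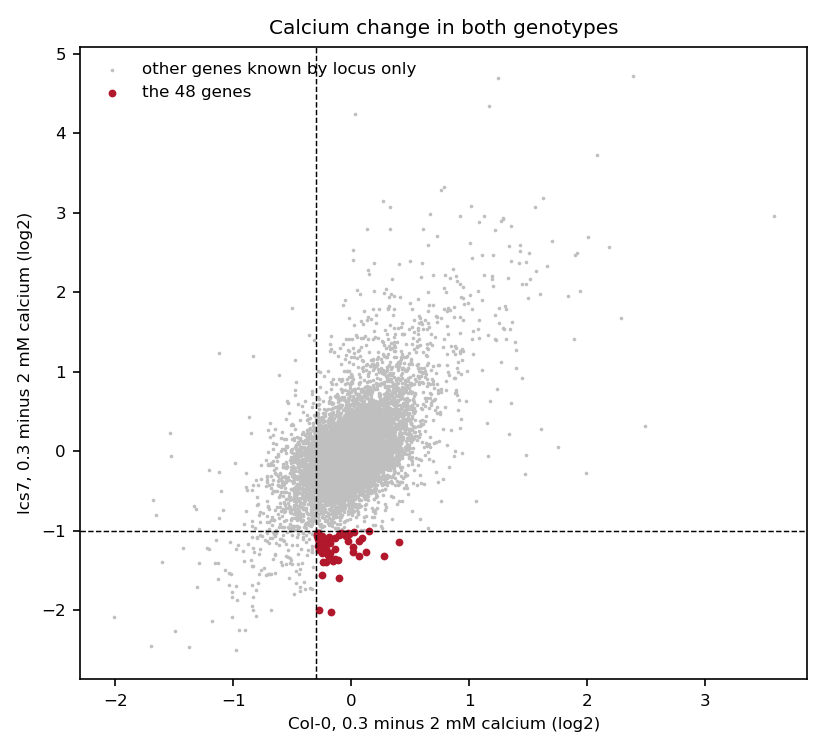
Difference between 0.3 and 2 mM calcium in lcs7 (vertical axis) against that in Col-0 (horizontal axis), both on the log2(signal + 50) scale, for the 11799 genes known by locus only. Dashed lines mark the thresholds of -1 and -0.3, and the 48 genes (red) crowd into the corner between them.

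The replicate arrays of Col-0 at 0.3 mM calcium differed over these genes. Set against the Col-0 mean at 2 mM, replicate 1 had a median of -0.21 over the 48 genes. The medians of the other 2 arrays were closer to 0, at -0.09 for replicate 2 and -0.11 for replicate 3. Replicate 1 was the lowest of its group in 25 of the 48 genes and the highest in 9. Taken alone, replicate 1 lay at or below -0.3 in 19 genes, replicate 2 in 7 and replicate 3 in 9. With replicates 2 and 3 left out, 33 genes met the rule, of which 29 were among the 48. With replicate 1 left out, 61 genes met it, 45 of them among the 48.

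The choice was also repeated with arrays held out. The rule was applied to 11 arrays at a time, and the left-out array was then set against the mean of the other calcium level of its genotype. The arrays of that other level took part in the choice, so these values are a description and no independent reading. For the 3 lcs7 arrays at 0.3 mM the chosen genes had a median difference of -1.12, -1.19 and -1.15 in the left-out array, where 59.6, 80.9 and 80.4% of them were at or below -1. For the 3 lcs7 arrays at 2 mM the medians were -1.08, -1.22 and -1.03. In Col-0 at 0.3 mM the medians in the left-out array were -0.38 for replicate 1, -0.05 for replicate 2 and -0.17 for replicate 3. With replicate 1 left out, 42.6% of the 61 chosen genes were above -0.3 in it, against 81.6% of 38 genes for replicate 2 and 65.9% of 44 genes for replicate 3.

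Of the 48 genes, 17 met the rule in each of the 12 settings without 1 array, and the least stable, AT4G28780, met it in 7. The 17 include AT5G62360, AT1G33811, AT1G51400, AT2G42220, AT2G47880, AT1G04800 and AT1G74470. Without replicates 2 and 3 of Col-0 at 0.3 mM 14 of the 17 met it, and the exceptions were AT5G62360, AT2G42220 and AT1G66100. Under quantile normalization 16 of the 17 met it, and the exception was AT1G74470. AT4G21870 met the rule in 10 of the 12.

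The average of the genotype differences at both calcium levels was not itself used by the rule. With 3 arrays per group its error would be independent of both calcium differences if the groups varied equally. The Col-0 groups did not. Genes at least 1 log2 unit from the other replicates numbered 122, 79 and 41 on the Col-0 arrays at 0.3 mM, against 24, 9 and 9 at 2 mM. The rule favours genes measured high in Col-0 at 0.3 mM, so this error can favour a negative average. The true size of the average is not free of the choice either: the rule sets the genotype difference at 0.3 mM below that at 2 mM. A chosen gene thus has group means that differ between the genotypes at 1 calcium level or both, which favours a call in either direction. A gene whose lcs7 signals lie below Col-0 at 0.3 mM and match it at 2 mM has a negative average, and a gene whose lcs7 signals lie above Col-0 at 2 mM and match it at 0.3 mM has a positive one. The test was limma over all 13356 genes, with Benjamini-Hochberg adjustment and a call at an adjusted p under 0.05. Of the 48 genes 35 were called lower in lcs7 than in Col-0, or 72.9%, against 11.7% of all genes. The 13356 genes were not so chosen and are dimmer, with a median signal of 137 against 872, so these shares are not like for like. A negative average is not particular to the 48, of which 43 had one, with a median of -0.44. Among the 132 other genes known by locus only past the lcs7 threshold, 117 had one, with a median of -0.47. The call for a higher level in lcs7 was made for 1 of the 48, against 9.07% of all genes. For the other 12 genes the average was not called, and 8 of these had a value below 0. A gene that is low in lcs7 at 0.3 mM alone has an average of 0.5 times that difference, so these calls do not show a difference between the genotypes at 2 mM.

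AT2G47880 had the largest fall in this average, -1.07 ± 0.07 (SE; limma adjusted p = 2.48e-06). Its signals were 223, 253 and 287 in lcs7 at 0.3 mM and 720, 658 and 746 in lcs7 at 2 mM, against 898, 904 and 865 in Col-0 at 0.3 mM and 1094, 1018 and 954 in Col-0 at 2 mM. Each lcs7 array was below every Col-0 array at both calcium levels. AT4G34220 fell by 0.85 on the log2 scale (SE 0.11, limma adjusted p = 0.000322). AT1G33811 fell by 0.81 (SE 0.07, limma adjusted p = 1.35e-05). AT3G06160, a dim gene with 49.3, 44.2 and 27 in lcs7 at 0.3 mM and 141, 125 and 135 in lcs7 at 2 mM, fell by 0.80 (SE 0.10, limma adjusted p = 0.000239). Its Col-0 signals were 125, 195 and 142 at 0.3 mM and 177, 237 and 178 at 2 mM. AT4G12980 fell by 0.78 (SE 0.13, limma adjusted p = 0.00132). The 35 falls ranged from -1.07 to -0.20 with a median of -0.51.

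The averages of AT5G62360 and AT4G21870, which had the largest calcium differences in lcs7, were not called. AT5G62360 had -0.29 ± 0.16 (limma adjusted p = 0.25) and AT4G21870 had -0.50 ± 0.19 (limma adjusted p = 0.0923). The average of AT4G21870 depends on replicate 1 of Col-0 at 0.3 mM: without that array it was -0.31 and not called, and without replicates 2 and 3 it was -0.89 and called. For AT5G62360 it was -0.14 without replicates 2 and 3, and not called. AT1G74470 fell by 0.24 (SE 0.06, limma adjusted p = 0.017), and without those arrays its -0.17 was not called. Without those arrays 28 of the 48 genes were called, 1 of them higher in lcs7, with the lone Col-0 array at 0.3 mM assumed to vary like the other groups.

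At 2 mM calcium the 48 genes fell into 3 sets by whether the lcs7 and Col-0 arrays overlapped. These differences share arrays with the rule, which favours genes that are high in lcs7 or low in Col-0 at 2 mM, and are given without a test. They are also part of the average over both calcium levels. The calls given below for each set thus follow in part from the split, and nothing is read from their contrast between sets. The lcs7 arrays at 2 mM lay above the Col-0 arrays in 15 genes, or 31.2%, and in 8.83% of all genes. They lay below in 7 genes, or 14.6%, and in 12.6% of all genes. In the other 26 genes the arrays overlapped. The median difference at 2 mM over the 48 genes was 0.09. At 0.3 mM it was -0.998, and the lcs7 arrays lay below the Col-0 arrays in 45 of the 48, against 20% of all genes. They lay above them in 1 gene, against 15.7% of all genes. In the same 45 genes the lcs7 arrays at 0.3 mM were below all 9 other arrays, which held for 12% of all genes.

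**Figure D4:**
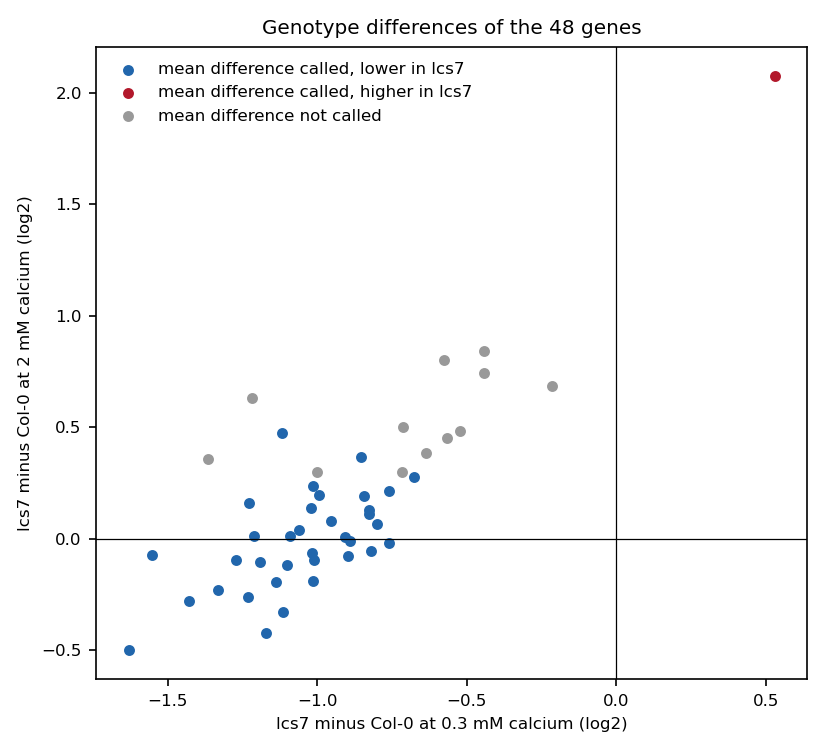
Difference between lcs7 and Col-0 at 2 mM calcium (vertical axis) against that at 0.3 mM (horizontal axis) for the 48 genes, as log2(signal + 50) group means; colour gives the limma call on the average of both. The 35 called falls lie left of 0 on the horizontal axis, and AT1G20030, the 1 called rise, stands alone at the upper right.

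The 26 genes with overlapping arrays at 2 mM had lcs7 signals below those of Col-0 at 0.3 mM in each case. Their median difference between lcs7 and Col-0 was 0.01 at 2 mM and -1.01 at 0.3 mM, and 23 of the 26 were called lower in the average. In order of signal they were AT2G45180, AT1G51400, AT5G08050, AT5G53490, AT1G51110, AT5G18600, AT4G21870, AT5G37360, AT3G08920, AT1G33811, AT3G45160, AT4G39970, AT1G77060, AT1G32220, AT5G24570, AT3G15520, AT5G55620, AT4G28780, AT2G38820, AT1G78170, AT4G12980, AT1G51090, AT3G14760, AT1G75880, AT5G03130 and AT1G06980. The 3 not called were AT4G21870, AT2G38820 and AT1G51090. AT1G51110 is the 1 gene of the 48 with more than 1 probe set, and its dimmer probe set had an lcs7 difference of -0.80, which is outside the threshold.

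The 15 genes higher in lcs7 at 2 mM combined a high level there with, in most of them, a level below Col-0 at 0.3 mM. Their median difference between lcs7 and Col-0 was 0.48 at 2 mM and -0.64 at 0.3 mM. In order of signal they were AT5G24490, AT1G74470, AT2G42220, AT5G62360, AT1G04800, AT1G66100, AT1G12845, AT1G68490, AT5G25840, AT1G20030, AT1G75960, AT1G69160, AT3G16800, AT1G78530 and AT1G10770. At 0.3 mM the lcs7 arrays lay below those of Col-0 in 12 of the 15. The average over both calcium levels was called lower in 5, higher in 1 and not called in 9.

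AT1G20030 was the 1 gene of the 48 with a higher signal in lcs7 than in Col-0 at both calcium levels. Its signals were 214, 238 and 204 in lcs7 at 0.3 mM and 415, 687 and 559 in lcs7 at 2 mM, against 58.7, 192 and 193 in Col-0 at 0.3 mM and 101, 93.3 and 78.3 in Col-0 at 2 mM. The average rose by 1.30 ± 0.19 (limma adjusted p = 0.000542). Its Col-0 difference of 0.40, the highest of the 48, rests on replicates 2 and 3 at 0.3 mM, since replicate 1 lay below the Col-0 arrays at 2 mM. Without replicates 2 and 3 it did not meet the rule.

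In AT1G66100 and AT1G10770 the lcs7 and Col-0 arrays overlapped at 0.3 mM and were apart at 2 mM. AT1G66100 had 1093, 555 and 889 in lcs7 at 0.3 mM and 1482, 2479 and 2299 in lcs7 at 2 mM, against 732, 1662 and 1170 in Col-0 at 0.3 mM and 1195, 882 and 1316 in Col-0 at 2 mM. AT1G10770 was dim, at 43.3, 41.7 and 16.4 in lcs7 at 0.3 mM and 166, 150 and 90.7 in lcs7 at 2 mM, against 25.2, 55.3 and 61.9 in Col-0 at 0.3 mM and 80.4, 75.2 and 39.7 in Col-0 at 2 mM.

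The 7 genes lower in lcs7 at 2 mM were AT1G09750, AT5G35740, AT2G47880, AT4G33490, AT4G34220, AT4G25260 and AT3G06160. Their difference between lcs7 and Col-0 ranged from -0.50 to -0.19 at 2 mM and from -1.63 to -1.01 at 0.3 mM. In these genes the lcs7 arrays were below those of Col-0 at either calcium level. All 7 were called lower in the average, which the split at 2 mM favours. Their median Col-0 calcium difference was -0.24, against -0.05 in the 15 genes higher in lcs7 at 2 mM. The sets were split on the same Col-0 arrays at 2 mM that enter this difference, so its direction is favoured by the split.

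In 10 of the 48 genes the mean of Col-0 at 0.3 mM was above that at 2 mM, although in no gene did the 3 arrays lie above the 3 at 2 mM, which was so for 10.1% of all genes. The 5 largest such differences were in AT1G20030 (0.40), AT1G04800 (0.28), AT5G08050 (0.15), AT1G78170 (0.12) and AT4G39970 (0.09). AT1G04800 had 662, 861 and 895 in lcs7 at 0.3 mM and 2189, 1845 and 2178 in lcs7 at 2 mM, against 1855, 1652 and 1879 in Col-0 at 0.3 mM and 1261, 1829 and 1375 in Col-0 at 2 mM. AT5G08050 averaged 2865 ± 221 in lcs7 at 0.3 mM and 5808 ± 523 in lcs7 at 2 mM, against 5853 ± 171 in Col-0 at 0.3 mM and 5288 ± 651 in Col-0 at 2 mM. The Col-0 arrays of both genes overlapped between the calcium levels.

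Within groups the 48 genes varied together only weakly. The mean correlation between pairs of them, over deviations of the 12 arrays from their group means, was 0.11. Over all pairs of the 13356 genes it was 0.01, and over the 132 genes past the lcs7 threshold alone it was 0.33. These pairs share the 12 arrays, and the value is a description. In lcs7 at 2 mM replicate 2 was above its group mean in 38 of the 48 genes and replicate 3 in 13.

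The 48 genes lay on all 5 chromosomes, in unequal shares. There were 20 on chromosome 1, 4 on chromosome 2, 6 on chromosome 3, 7 on chromosome 4 and 11 on chromosome 5. These are 0.656, 0.207, 0.249, 0.412 and 0.413% of the genes known by locus only on each. No 2 of them were next to each other in the order of genes in the RefSeq table of assembly TAIR10.1. The nearest were AT1G51090 and AT1G51110, with 1 gene between them. They had unlike levels, with mean signals of 174 and 2713.

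The same thresholds were met by 14 of the 1557 genes that do carry a symbol, or 0.899%. In order of their lcs7 difference, starting at -1.99, they were COR15A, COR15B, KICP-02, AAH, UGT85A5, STOMAGEN, BGLU33, iqd21, TAPX, PORB, SETH3, PSAN, CaS and iqd33. PSAN, a subunit of photosystem I, had -1.05 in lcs7 and -0.15 in Col-0, and CaS, the thylakoid calcium sensor, had -1.04 in lcs7 and -0.28 in Col-0. Both are also among the shoot markers. The summed signal of the 5 measured shoot markers, which include PSAN and CaS, was 36093 to 37123 in lcs7 at 0.3 mM, against 60781 to 70364 in lcs7 at 2 mM, and in Col-0 it was 47211 to 55404 at 0.3 mM, against 52182 to 53828 at 2 mM. The sum was thus also lower in lcs7 at 0.3 than at 2 mM, and so were 4 of the 5 markers. The exception was LHCB4.3, an antenna protein of photosystem II, with a mean of 3313 in lcs7 at 0.3 mM against 1486 at 2 mM. The part of the markers in the result was not tested. Of the 28 genes known by locus only that a synonym placed in a functional class, limma called 7 lower and 4 higher in lcs7 at 0.3 than at 2 mM, against 13.6 and 12.6% of all genes, and 1 of the 28, AT1G74470, is among the 48. AT1G74470 is also 1 of the 7 called lower, which its choice by the rule favours, and nothing about the 48 genes is read from these counts.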

How the data were processed

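Total RNA of 12 shoot samples was hybridized to Affymetrix arrays. The deposited intensity values are linear signals of 22746 probe sets. RMA and oligo 1.32.0 were used per the submitters' processing notes, yet the values are linear and their distributions differ between arrays, so their summarisation stays unknown. No read depth exists for arrays, and 3 per group limit the precision. Of 14016 probe sets with a gene, 503 with several were left out, and the brightest was kept for each of 13356 genes. 13286 genes matched the RefSeq table.

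On log2(signal + 50), limma 3.58.1 (R 4.3.3) fitted 4 group means over 12 arrays labelled as biological replicates, with two-sided tests. The other steps used Python 3.11.15 with numpy (2.4.6), pandas (2.3.3) and, for plots, matplotlib (3.10.9). The genes and lists were chosen with earlier results of these data known. Named genes were the 10 largest lcs7 differences, the 8 brightest in lcs7 at 2 mM, the 5 largest Col-0 increases, up to 5 calls of the averaged genotype difference in each direction, and the 3 genes nearest each side of a threshold. Classes with 3 or more of the 48 genes would have added names, and there were none. AT1G66100, AT1G10770, the genes listed by set and those with a symbol were named after their values were seen. On simulated data over 13356 genes, the test of the averaged difference recovered 80% of 1.5-fold and 98% of 2-fold changes, with 9 false calls. These folds were on the offset scale, where a dim gene needs a larger change in signal. The noise was drawn independently for each gene and array, so the shares may not hold for the real arrays. Alternatives were other offsets, quantile normalization, probe set means, a filter on dim genes, arrays left out, a replicate block and other limma settings. Functional classes rested on synonyms, which were descriptive for 75 of the 11799 genes known by locus only. Promoter motifs were not analysed here.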

Additional observations from a re-analysis of the deposited data

Results flagged for a closer look

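In 3 of the 48 genes every Col-0 array at 0.3 mM calcium lay above the Col-0 mean at 2 mM, while every lcs7 array at 0.3 mM lay below the lcs7 mean at 2 mM. The lcs7 calcium difference minus that of Col-0 was -1.16 in AT5G08050, -1.59 in AT1G04800 and -1.39 in AT1G78170. The rule that chose the genes fixes this sign, and the difference was not tested.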

How the results depend on the processing

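The offset decides how many genes meet the rule. With no offset 573 genes met it, 39 of them among the 48, and with an offset of 20 there were 74, with 43 among the 48. Offset 100 gave 35 (34 shared) and quantile normalization 49 (42 shared). Without 1 array the count ran from 38 to 61. The median lcs7 calcium difference of the 48 was -1.33 with no offset, -1.30 with offset 20 and -1.06 with offset 100. Their median genotype difference at 0.3 mM was -1.12 with no offset, -0.89 with offset 100, -0.93 with quantile normalization and -0.90 without Col-0 replicates 2 and 3 at 0.3 mM. At 2 mM it ran from 0.0123 without lcs7 replicate 2 to 0.17 without lcs7 replicate 3. The averaged genotype difference was called in 33 to 35 of the 48 genes without 1 array, in 2 with a difference of at least 1 also required, and in 28 to 36 under the other alternatives. Leaving out any 1 of the 12 arrays kept 32 of the 36 calls. AT1G04800 and AT1G06980 were called in 2 of the 12 such fits and AT5G25840 in 3. AT5G62360, not called with all arrays, passed at -0.44 without lcs7 replicate 1 at 0.3 mM, and AT4G21870 at -0.61 without Col-0 replicate 3 at 0.3 mM. Among functional classes 4 genes were called with a difference of at least 1, against 11.

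Replicate numbers gave no clear pairing of the arrays. Between groups, deviations of same-numbered arrays correlated between -0.26 and 0.34, with 4 of 18 over 0.1. Those of arrays with other numbers correlated between -0.41 and 0.34. A batch shared by only some of the groups was not tested. With the replicate number as a block 35 of the 48 were called. The promoter motif shares were not run, as no promoter sequences were used here.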
